A study of Mus musculus with 4 samples.

Results

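The genes described here are 37 antiviral interferon-stimulated genes, taken by symbol from a list and measured in mouse bone marrow stem and progenitor cells. A row of the deposited table counted for a member if the platform annotation gave it exactly 1 gene symbol equal to the member's, and of several such rows the one with the highest mean over the 4 arrays was used. Of the 37 members, 34 had such a row among 22180 genes in all. Oas1a, Ifi44 and Ifi27l2a had none. A further 5, Ifit2, Mx1, Mx2, Isg15 and Cxcl10, had a mean signal under the limit for dim genes of 4.835 log2 units and were not tested, which left 29 members among 16635 genes tested. The working name of the group says that it leaves out GTPases. That holds for the immunity-related GTPases and the guanylate-binding proteins, but Mx1 and Mx2 encode dynamin-like GTPases themselves, and the group is called antiviral interferon-stimulated genes here.

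The cells were Thy1+ LSK cells, that is, lineage-negative bone marrow cells that carry Sca-1, Kit and Thy1 and are enriched for haematopoietic stem cells. One group was Nol3+/+ (wild type for Nol3), with 2 arrays. The other was Nol3-/- MPN (without functional copies of Nol3, and given the disease label MPN, read here as myeloproliferative neoplasm), also with 2 arrays. Both groups came from untreated C57BL/6 mice between 11 and 18 months of age. The sample labels give the disease label to Nol3-/- alone, so genotype and disease cannot be told apart. They do not say how Nol3 was deleted, or whether an array held RNA of 1 mouse or of several. The p-values therefore set a group difference against the spread between arrays, moderated over all genes tested, which may not be the spread between mice. The RNA was amplified and hybridised to whole-transcript Affymetrix arrays, and values are normalized log2 signals per gene row.

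Interferons are secreted when a cell senses viral or other foreign nucleic acid. They bind surface receptors whose JAK kinases activate transcription factors, and a complex that includes IRF9 then binds interferon-stimulated response elements in promoters and switches on a large set of genes. Many products of these genes stop viral replication at one step, such as entry, RNA translation or RNA stability. Stem cells are known to keep a part of this programme switched on without infection. Interferon can drive normally resting haematopoietic stem cells into division.

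Promoter sequences from RefSeq (build GRCm38.p6, 250 bases before to 50 after each start) were found for 27 of the 37 members. No entry was found for Dhx58, Ifi27l2a, Mx1, Mx2, Oas2, Parp14, Parp9, Rtp4, Usp18 and Zbp1. The core of the response element was searched as GAAANNGAAA on both strands, and copies may overlap each other. It was present in the 300 bases of 14 of the 27 members (51.9%), against 1079 of 27025 genes with a promoter (3.99%). The core of the gamma-activated site, an element of interferon gamma signalling, was searched as TTCNNNGAA, which reads the same on both strands. It was present in 7 of the 27 members (25.9%) against 9.55% of all genes. The windows printed here include members with higher values in Nol3-/- MPN (Ifitm2, Trim30a), members with close to equal values (Ifit1, Ifit3, Rsad2) and Isg15, the name-giver of the family, with every copy of GAAANNGAAA, or of its complement, in capitals.
Isg15: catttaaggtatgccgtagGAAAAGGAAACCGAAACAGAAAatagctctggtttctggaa
Ifit1: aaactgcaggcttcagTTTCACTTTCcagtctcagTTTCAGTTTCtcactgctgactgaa
Ifit3: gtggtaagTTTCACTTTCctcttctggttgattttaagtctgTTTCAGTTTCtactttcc
Rsad2: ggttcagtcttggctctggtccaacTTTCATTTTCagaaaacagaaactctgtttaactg
Ifitm2: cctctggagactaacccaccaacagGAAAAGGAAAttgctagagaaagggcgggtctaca
Trim30a: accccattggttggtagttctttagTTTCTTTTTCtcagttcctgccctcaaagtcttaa

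These windows of 60 bases all lie before the start and are written in the direction of the gene. They are chr4:156200856-156200915 on the minus strand for Isg15, chr19:34640769-34640828 on the plus strand for Ifit1, chr19:34583365-34583424 on the plus strand for Ifit3, chr12:26456538-26456597 on the minus strand for Rsad2, chr7:140955973-140956032 on the minus strand for Ifitm2 and chr7:104465195-104465254 on the minus strand for Trim30a. Isg15 held 3 overlapping copies, the first beginning 78 bases before the start, and Ifit1 and Ifit3 held 2 separate copies each. Other members had the core just after the start, shown as windows of 30 bases.
Ddx58: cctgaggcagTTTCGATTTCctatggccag
Eif2ak2: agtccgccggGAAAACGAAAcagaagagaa
Ifih1: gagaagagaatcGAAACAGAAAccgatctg
Ifitm3: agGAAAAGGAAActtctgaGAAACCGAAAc

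All 4 lie on the minus strand, at chr4:40239804-40239833 for Ddx58, chr17:78882535-78882564 for Eif2ak2, chr2:62646206-62646235 for Ifih1 and chr7:141010715-141010744 for Ifitm3. A copy of the core is a match of letters and not a measured binding site. Of the 11 tested members with the core, in 3 each Nol3-/- MPN array read higher than either Nol3+/+ array, with a median log2 difference of 0.11 and a range from -0.17 to 0.86. Of the 11 tested members with a promoter entry but no core, this held for 3 as well (19.7% of all genes tested were so placed), with a median of 0.01 and a range from -0.35 to 0.79. Ifit1, Ifit3 and Eif2ak2, which all hold the core, had differences of 0.11, -0.17 and 0.86. Their 95% intervals overlap, and these genes were not tested against each other.

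Antiviral genes read on balance slightly higher in Nol3-/- MPN, and no single member passed the test. The median log2 difference of the 29 tested members was 0.17, a fold of 1.13, against 0.01 for all genes tested, and single members ranged from -0.35 (Isg20) to 0.86 (Eif2ak2). The middle of the members' distribution, from the 25th to the 75th percentile, ran from -0.01 to 0.48. Of the 29, 21 had a difference above 0, against 51.7% of all genes. With limma and Benjamini-Hochberg adjustment over all genes, 0 of the 29 passed the threshold of 0.05, where 0.024% of all genes did. The lowest adjusted p of a member was 0.841. The X-linked gene Xist was among the genes that passed, and with X- and Y-linked genes left out 0 of 16009 genes passed. At an unadjusted p under 0.05 limma took 2 members with higher values (Parp9 and Ifitm1; background 3.73%) and 0 with lower values (background 2.07%). In 10 of the 29 (34.5%) both Nol3-/- MPN arrays lay above both Nol3+/+ arrays, against 19.7% of all genes, and in 0 they lay below both, against 15.9%. A difference of at least 0.5 log2 units upward was seen in 7 members (24.1%) against 5.87% of all genes, and downward in 0 against 2.84%. Under other settings that kept all 4 arrays, the count of members below both Nol3+/+ arrays was not always 0. There were 4 such members after quantile normalization (18.0% of all genes) and 2 after median centring, beside 10 above both in each case. With the mean over a gene's rows there was 1, and with no filter on dim genes there was 1, Mx1. Leaving out 1 array makes separation easier in both directions, so those runs cannot test whether the absence holds. There were 3 members below both without Nol3+/+ replicate 1 (30.1% of all genes) and 4 without Nol3+/+ replicate 2 (35.8%). There were 4 without Nol3-/- MPN replicate 1 (26.3%) and 6 without Nol3-/- MPN replicate 2 (35.1%). In each of these settings, with 4 arrays or with 1 left out, the members' share below both was smaller than that of all genes. Quantile normalization also lowered the median to 0.07, and leaving out Nol3+/+ replicate 1 lowered it to 0.11. The count of members above both Nol3+/+ arrays went to 16 without Nol3+/+ replicate 2 and to 18 without Nol3-/- MPN replicate 2, where fewer arrays make separation easier and 37.6% and 31.9% of all genes were so placed.

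**Figure D1:**
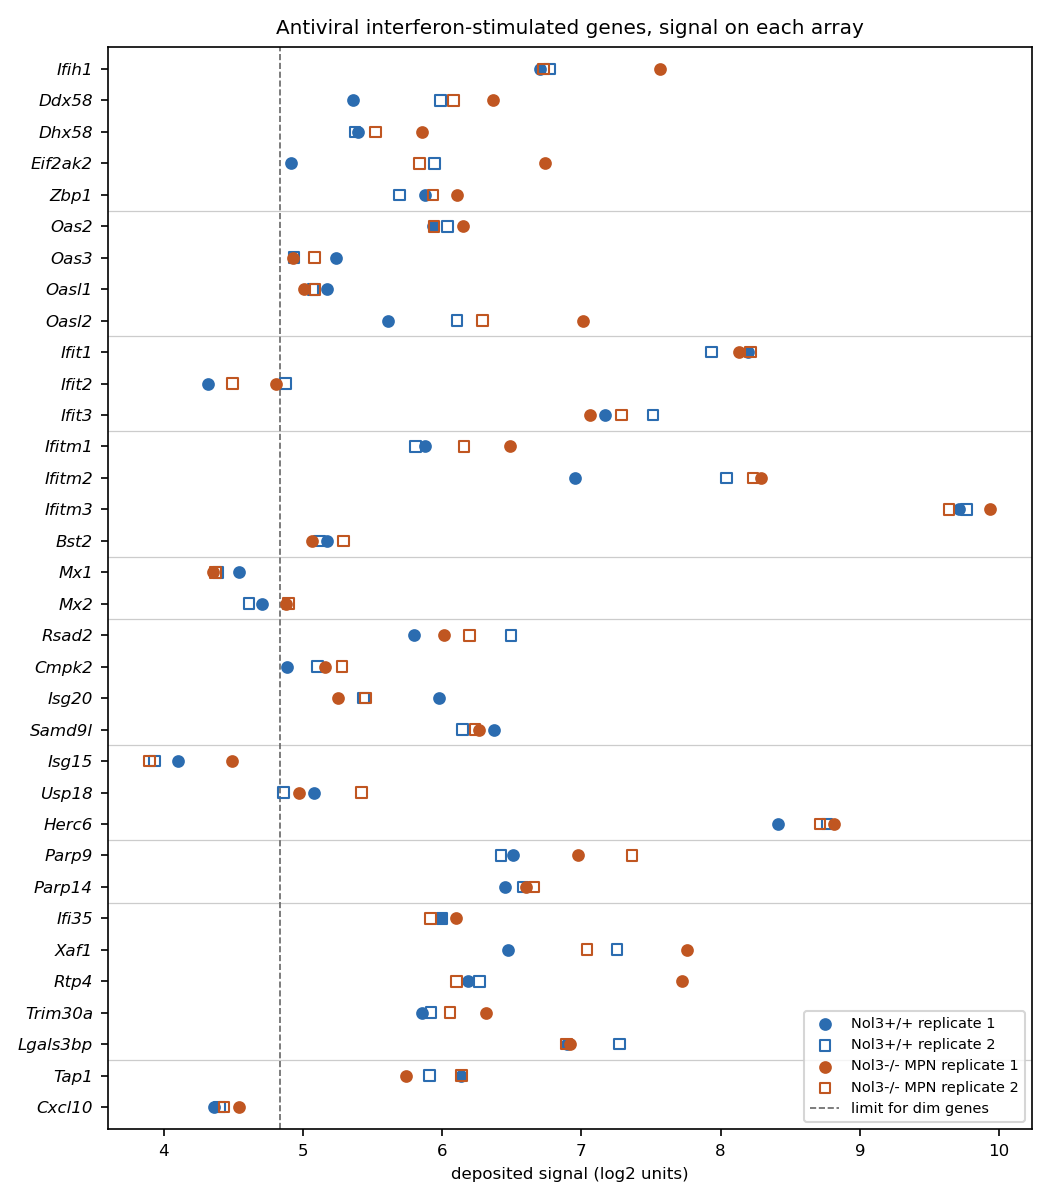
Signal of the 34 members with a row, in log2 units on the horizontal axis, on each of the 2 Nol3+/+ arrays (blue) and 2 Nol3-/- MPN arrays (orange). Filled circles are replicate 1, open squares are replicate 2, grey lines divide the role groups and the dashed line is the limit for dim genes at 4.835. Filled orange circles stand apart to the right for Ifih1, Eif2ak2, Oasl2, Xaf1 and Rtp4, and filled blue circles to the left for Ddx58, Eif2ak2, Ifitm2 and Xaf1.

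Several properties of the arrays run with these values. Nol3+/+ replicate 1 stood apart from the others across all genes tested, correlating with them at 0.899 to 0.911, whereas the other arrays correlated among themselves at up to 0.949. Xist read 5.43 and 5.28 in Nol3+/+ against 10.9 and 10.7 in Nol3-/- MPN, and the Y-linked gene Eif2s3y read 6.53 and 7.17 against 4.24 and 3.97, so the sex-linked signal divides the arrays as genotype does and sex-linked signal and genotype cannot be told apart. None of the 29 tested members lies on the X or Y chromosome. Nol3 itself read 5.31 and 5.52 in Nol3+/+ against 5.38 and 5.50 in Nol3-/- MPN, and since the labels do not place the deletion relative to the probes this checks nothing. Of the sort genes, Kit read 8.07, 8.10, 8.38 and 7.39 and Thy1 4.74, 5.02, 4.64 and 5.24 over the arrays in the same order, with Thy1 close to the limit for dim genes, and Ly6a, which encodes Sca-1 and is itself induced by interferon, had no row of its own. The list of stem cell and sort genes had 8 tested. Of these, 2 lay below both Nol3+/+ arrays (15.9% of all genes), Hlf and Procr, with differences of -0.83 and -0.27. Mecom lay above both (0.31; 19.7% of all genes), and the others overlapped. Hlf had a limma unadjusted p of 0.0051 (adjusted p = 0.841).

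Markers of cells that can carry high interferon signatures were set beside the members. For plasmacytoid dendritic cells, which also display Bst2, 6 of 6 markers had a row. Their mean signals were 5.67 and 5.85 in Nol3+/+ against 5.86 and 5.90 in Nol3-/- MPN. Of 5 tested markers, 2 lay above both Nol3+/+ arrays (19.7% of all genes) and 0 below (15.9%) in Nol3-/- MPN. The 6 macrophage markers had means of 5.56 and 5.55 against 5.61 and 5.65, with 2 above both Nol3+/+ arrays and 2 below. The 6 monocyte markers had means of 5.54 and 5.66 against 5.49 and 5.53, and of 5 tested, 1 lay above and 1 below. The 8 granulocyte markers had means of 6.53 and 7.08 against 6.55 and 6.49. Of these 8, 4 lay below both Nol3+/+ arrays (15.9% of all genes) and 0 above. S100a8 and S100a9 differed by -0.86 and -0.83, while Mpo and Elane overlapped with differences of 0.48 and 0.07. Of 6 B cell markers 5 had a row, with list means over these 5 of 5.04 and 5.07 against 5.15 and 5.28. All 3 tested ones lay higher in both Nol3-/- MPN arrays (19.7% of all genes). The others were dim: Vpreb1 read lower in both Nol3-/- MPN arrays, and Ms4a1 overlapped. A log signal has no zero, so absence of a marker could not be read, and the part of these cells in the members' values was not tested. In a bulk sample, more cells of one type and more RNA per cell cannot be told apart.

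The RNA sensors all had higher means in Nol3-/- MPN. All 5 were tested, with differences from 0.24 to 0.86 and a median of 0.41, and 3 of them lay above both Nol3+/+ arrays, as 19.7% of all genes did. Ddx58, which encodes RIG-I, the sensor of uncapped viral RNA ends, read 5.36 and 5.99 in Nol3+/+ against 6.37 and 6.08 in Nol3-/- MPN. Both Nol3-/- MPN arrays were above both Nol3+/+ arrays, although Nol3+/+ replicate 2 lay within 0.1 of Nol3-/- MPN replicate 2. The groups differed by 0.55 log2 units (SE 0.26, limma adjusted p = 0.841), and the 95% interval reached down to -0.10. With 1 array left out the difference lay between 0.24 and 0.86. Dhx58, which encodes LGP2, a helper of the other RNA sensors, read 5.40 and 5.37 against 5.85 and 5.52, and its groups were separate. The difference of 0.30 went to 0.14 without Nol3-/- MPN replicate 1 and to 0.47 without Nol3-/- MPN replicate 2. Zbp1, a sensor of left-handed nucleic acid that triggers necroptosis, read 5.88 and 5.69 against 6.11 and 5.94, also separate but by little (0.24, or 0.14 to 0.33 with 1 array left out).

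Ifih1 encodes MDA5, which senses long double-stranded RNA, and read 6.70 and 6.77 in Nol3+/+ against 7.56 and 6.73 in Nol3-/- MPN. Only Nol3-/- MPN replicate 1 was high, and without it the difference went from 0.41 to -0.01. Eif2ak2, which encodes the kinase PKR that shuts down translation on double-stranded RNA, read 4.92 and 5.95 against 6.74 and 5.84. This largest difference among the members (0.86, SE 0.45, lower bound -0.28, limma adjusted p = 0.841) joined a low Nol3+/+ replicate 1 with a high Nol3-/- MPN replicate 1, and the groups overlapped. Left-out arrays moved it between 0.34 and 1.37.

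The oligoadenylate synthetase family, whose enzymes make the messenger that activates RNase L, was split. Oasl2, a relative that also carries ubiquitin-like domains, read 5.61 and 6.11 in Nol3+/+ against 7.01 and 6.29 in Nol3-/- MPN. The groups were separate and differed by 0.79 (SE 0.32, 95% interval -0.01 to 1.59, limma adjusted p = 0.841), or by 0.43 to 1.15 with 1 array left out. Its genomic neighbour Oasl1, an inhibitor of Irf7 translation, read 5.17 and 5.07 against 5.01 and 5.09, overlapping and differing by -0.08. Oas2 read 5.93 and 6.04 against 6.15 and 5.94, and Oas3 5.24 and 4.94 against 4.93 and 5.08, both with overlap and with differences of 0.06 and -0.08. Of the 4 tested, 2 thus had a difference above 0 and 1 was separated between groups. Members of this family and of the Ifit and Ifitm families have close relatives in the genome, so their rows may share signal.

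The IFIT proteins, which bind viral RNA that lacks the host cap structure, were close to equal between the groups. Ifit1 read 8.20 and 7.93 in Nol3+/+ against 8.13 and 8.21 in Nol3-/- MPN, a difference of 0.11 with an interval from -0.48 to 0.69. Ifit3 read 7.17 and 7.51 against 7.06 and 7.29, which differs by -0.17 (SE 0.24, 95% interval -0.78 to 0.44, limma adjusted p = 0.942). Ifit2, not tested as dim, read 4.32 and 4.88 against 4.81 and 4.50. Groups overlapped for all 3 of these genes, which lie close together on chromosome 19. The intervals of Ifit1 and Ifit3 leave room for a difference either way.

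Among proteins that act at membranes, Ifitm1 and Ifitm2 read higher in both Nol3-/- MPN arrays while Ifitm3 and Bst2 overlapped. The IFITM proteins block fusion of enveloped viruses with cell membranes. Ifitm1 read 5.88 and 5.81 in Nol3+/+ against 6.49 and 6.16 in Nol3-/- MPN. The groups differed by 0.48 (SE 0.18, 95% interval 0.01 to 0.95, limma unadjusted p = 0.0462, adjusted p = 0.841), with each Nol3-/- MPN array more than 0.2 above either Nol3+/+ array. Ifitm2 read 6.95 and 8.04 against 8.29 and 8.23, separate between groups by 0.76 on average (SE 0.40, limma adjusted p = 0.841). Here Nol3+/+ replicate 1 alone was low, and without it the difference was 0.22. Ifitm3, the member of the family that blocks influenza virus entry, read 9.71 and 9.76 against 9.93 and 9.64 (0.05). Bst2 encodes tetherin, which holds budding virions at the cell surface, and read 5.18 and 5.12 against 5.07 and 5.29 (0.03). Ifitm1, Ifitm2 and Ifitm3 lie together on chromosome 7. Their 95% intervals overlap, and whether their differences are unlike was not tested.

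**Figure D2:**
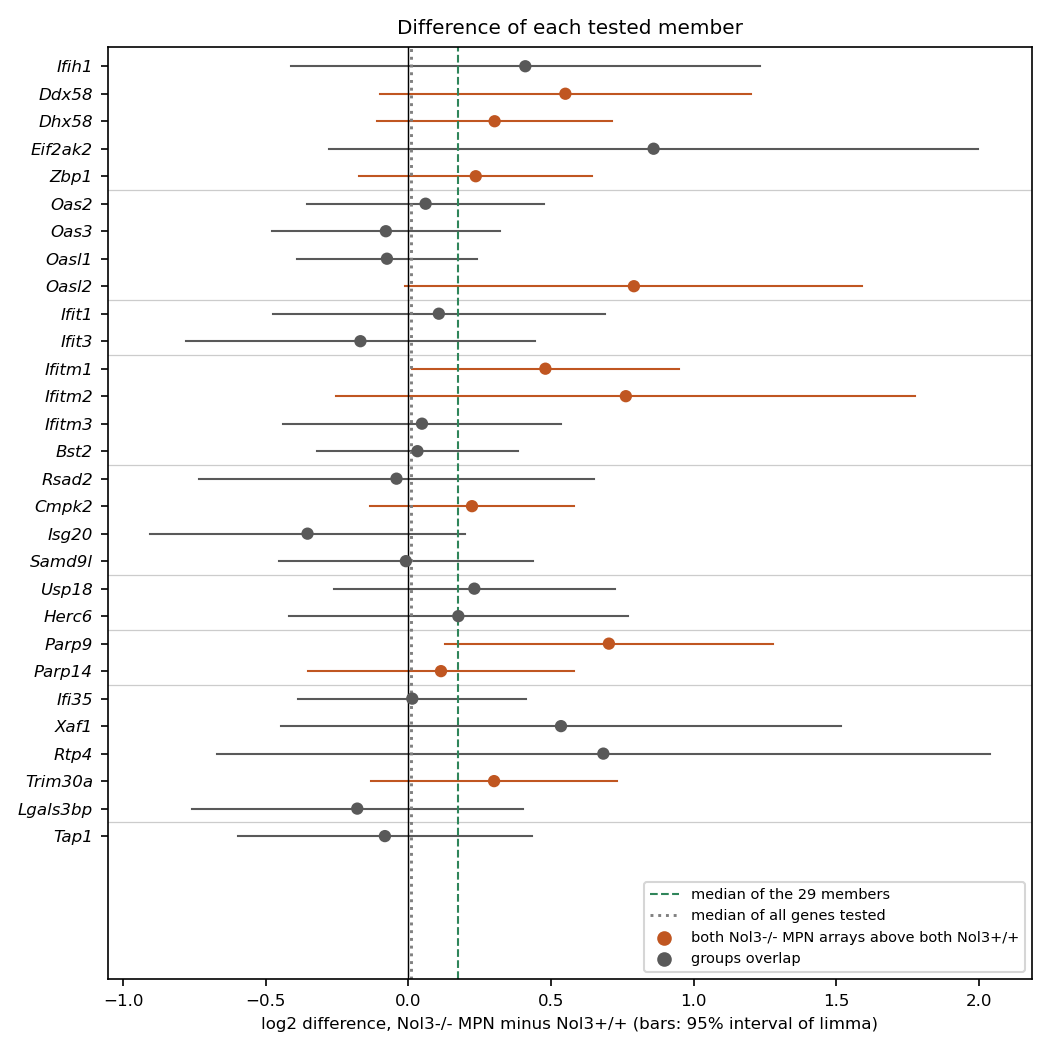
Log2 difference, Nol3-/- MPN minus Nol3+/+, of the 29 tested members, with bars for the 95% interval of limma; 10 orange points mark members whose groups did not overlap. The dashed line is the members' median of 0.17 and the dotted line the median of all genes tested at 0.01. The intervals of Parp9 and Ifitm1 exclude 0 before adjustment and those of the other 27 include it.

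ADP-ribosylating proteins gave the member with the smallest p. Parp9, which acts with the ubiquitin ligase DTX3L to strengthen interferon signalling, read 6.51 and 6.42 in Nol3+/+ against 6.97 and 7.36 in Nol3-/- MPN. Both Nol3-/- MPN arrays were above both Nol3+/+ arrays by more than 0.4, and in this gene replicate 2 was the higher of them. The groups differed by 0.70, a fold of 1.63 (SE 0.23, 95% interval 0.13 to 1.28, limma unadjusted p = 0.0251, adjusted p = 0.841). This difference stayed between 0.51 and 0.90 when any 1 array was left out. A row that the annotation gives to Dtx3l and Parp9 together differed by only 0.02, with overlap. Parp14, a neighbour on chromosome 16 that encodes a mono-ADP-ribosyltransferase, read 6.45 and 6.58 against 6.60 and 6.66. Its groups were separate by a narrow margin, with a difference of 0.11.

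Enzymes of nucleotides and RNA showed little difference. Rsad2 encodes viperin, which makes a chain-terminating nucleotide, and read 5.79 and 6.50 in Nol3+/+ against 6.01 and 6.19 in Nol3-/- MPN (-0.04). Its neighbour Cmpk2, a mitochondrial nucleotide kinase, read 4.89 and 5.11 against 5.16 and 5.28, separate with a difference of 0.22. Isg20, an exonuclease that degrades single-stranded RNA, gave the lowest difference of the members, with 5.98 and 5.43 against 5.25 and 5.45. Its Nol3+/+ replicate 1 alone was high, the groups overlapped, and they differed by -0.35 (SE 0.22, limma adjusted p = 0.862), or by -0.08 without that array. Samd9l, a restriction factor whose human counterpart is mutated in inherited marrow failure with myeloid neoplasia, read 6.37 and 6.15 against 6.26 and 6.24 (-0.01).

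In the Isg15 pathway, in which a ubiquitin-like protein is attached to targets, neither tested member was separated between groups. Isg15, which encodes the modifier, was dim at 4.10 and 3.93 in Nol3+/+ against 4.49 and 3.90 in Nol3-/- MPN. Usp18, which removes the modifier and also damps the interferon receptor, read 5.08 and 4.86 against 4.98 and 5.42. The groups differed by 0.23 (SE 0.19, limma adjusted p = 0.886), with Nol3-/- MPN replicate 2 alone high, and by 0.0074 without that array. Herc6, the ligase that attaches the modifier in mice, read 8.41 and 8.76 against 8.81 and 8.71. Its groups overlapped, and the difference of 0.17 rested on Nol3+/+ replicate 1, without which it was 0.00075. It was 0.35 without Nol3+/+ replicate 2 and 0.05 after quantile normalization.

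Both Mx genes, whose proteins trap viral nucleocapsids and which are known to be disrupted in C57BL/6 and most other laboratory strains, were dim. Mx1 read 4.54 and 4.39 in Nol3+/+ against 4.36 and 4.38 in Nol3-/- MPN, and Mx2 4.71 and 4.61 against 4.88 and 4.90. Their mean signals lay under the limit, so no test was made and these values cannot be separated from background. Just outside the limit was Mx2, with a mean over the arrays of 4.78, and just inside it Oas3, with 5.05.

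The remaining effectors were led by Rtp4 and Xaf1, each through 1 or 2 arrays. Rtp4, a receptor chaperone that also inhibits viral replication, read 6.19 and 6.27 in Nol3+/+ against 7.72 and 6.10 in Nol3-/- MPN. Only Nol3-/- MPN replicate 1 was high, and the groups differed by 0.68 (SE 0.53, limma adjusted p = 0.878), or by -0.13 without that array. Xaf1, which opposes the apoptosis inhibitor XIAP, read 6.47 and 7.26 against 7.76 and 7.04, with overlap and a difference of 0.53, which lay between 0.14 and 0.93 with 1 array left out. Trim30a, a regulator of Toll-like receptor signalling, read 5.86 and 5.92 against 6.32 and 6.06 and was separate (0.30). Ifi35 read 5.99 and 6.00 against 6.10 and 5.92 (0.01), and a second row of this gene differed by -0.32. Lgals3bp, a secreted binder of galectins, read 6.90 and 7.28 against 6.92 and 6.89 (-0.18), and its second row differed by 0.08, so the rows of both genes disagree in size or sign.

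Tap1, a subunit of the peptide transporter of MHC class I presentation, read 6.14 and 5.91 in Nol3+/+ against 5.74 and 6.14 in Nol3-/- MPN, with overlap and a difference of -0.08 (SE 0.20, limma adjusted p = 0.970). The T cell chemokine gene Cxcl10 was dim, with 4.36 and 4.40 against 4.54 and 4.43.

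Counted by the array that held a member's highest value, Nol3-/- MPN replicate 1 led. Of the 29 tested members, 15 had their highest value there (22.1% of all genes did), 7 on Nol3-/- MPN replicate 2 (27.8%), 4 on Nol3+/+ replicate 1 (30.1%) and 3 on Nol3+/+ replicate 2 (20.0%). The lowest value was on Nol3+/+ replicate 1 for 12 members (29.5% of all genes). Nol3-/- MPN replicate 1 lay at least 0.5 above the other 3 arrays for 5 members, Eif2ak2, Ifih1, Oasl2, Rtp4 and Xaf1, where 2.22% of all genes did. Nol3+/+ replicate 1 lay at least 0.5 below the other 3 for 4 members, Ddx58, Eif2ak2, Ifitm2 and Xaf1, against 3.65% of all genes. No other array was so low for a member, and Nol3+/+ replicate 1 was so high for 1, Isg20.

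The median member difference was 0.22 for Nol3-/- MPN replicate 1 against Nol3+/+ replicate 1, where that of all genes was -0.02. It was 0.12 for Nol3-/- MPN replicate 1 against Nol3+/+ replicate 2 (all genes 0.00) and 0.12 for Nol3-/- MPN replicate 2 against Nol3+/+ replicate 1 (all genes 0.03). The remaining pair, both replicates 2, gave 0.09 against 0.04 for all genes, with 18 of 29 members above 0. Within the groups the members' median was 0.06 for Nol3+/+ replicate 2 against replicate 1 and -0.06 for Nol3-/- MPN replicate 2 against replicate 1. The median size of a member's difference without its sign was 0.22 and 0.23 in these pairs within groups, and between 0.15 and 0.31 in the pairs between groups. For a typical member, arrays of 1 group thus differed by amounts within the range seen between groups. Without Nol3+/+ replicate 1 the median difference of the members was 0.11, and without Nol3-/- MPN replicate 1 it was 0.14.

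**Figure D3:**
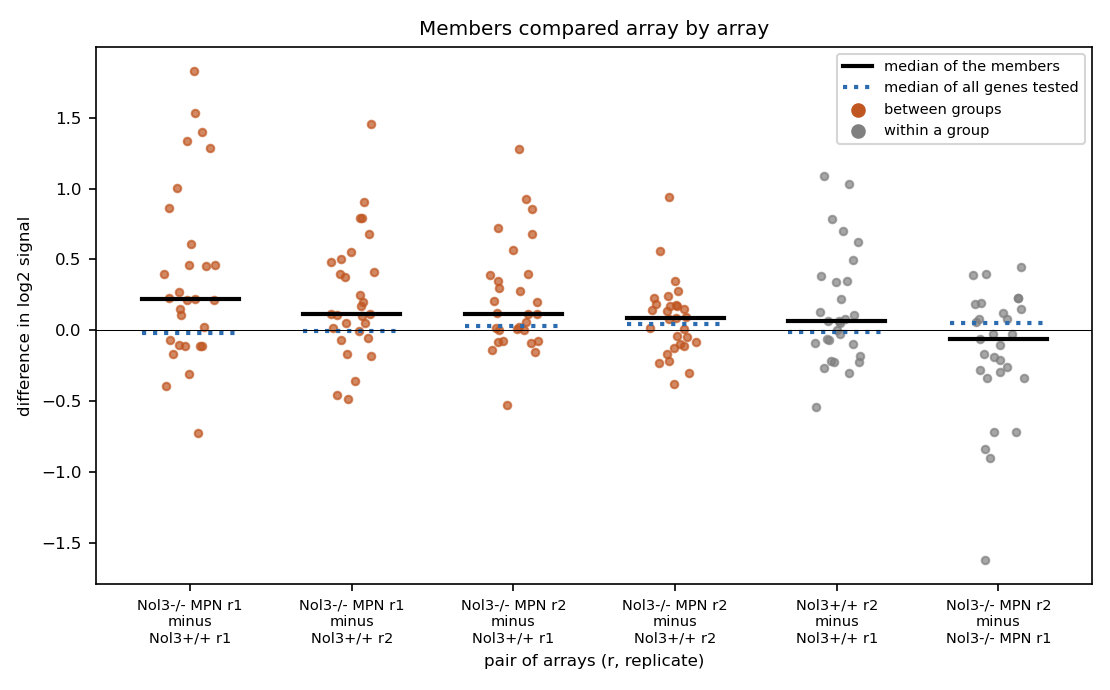
Differences in log2 signal of the 29 tested members for each pair of arrays, between groups (orange) and within a group (grey), with the members' median as a black line and that of all genes tested as a dotted blue line. The members' median is highest for Nol3-/- MPN replicate 1 against Nol3+/+ replicate 1, at 0.22, and the points of both kinds of pair spread over more than 1 log2 unit.

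The interferon pathway genes listed outside the members were close to even. The list held ligands, receptors, kinases, transcription factors, sensors and adaptors. It also held the regulators Socs1, Socs3, Pias1 and Ptpn2, and Uba7 and Ube2l6 of Isg15 attachment, so it is not an upstream list alone. Of the 41 listed, 38 had a row and 34 were tested. Differences were above 0 for 17 and below 0 for 17, with a median of 0.01. By limma 0 of the 34 passed the adjusted threshold and 0 reached an unadjusted p under 0.05, and 1 lay above both Nol3+/+ arrays (19.7% of all genes) and 2 below both (15.9%). The receptor genes Ifnar1 and Ifnar2 differed by 0.14 and 0.31, with overlap in both. Of the factor that binds the response element, Stat2 read 5.30 and 5.10 in Nol3+/+ against 5.16 and 4.99 in Nol3-/- MPN, and Irf9 5.79 and 6.04 against 5.94 and 6.37. Among ligands Ifna2 read 6.91 and 8.29 against 6.63 and 6.75 (difference -0.91, SE 0.48, limma adjusted p = 0.841), with Nol3+/+ replicate 2 alone high, without which it was -0.22, and interferon alpha genes are so alike that their rows may not separate them.

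The interferon-inducible GTPases, which attack vacuoles that hold pathogens, had a median difference of 0.38. Of 18 listed, 13 had a row and 10 were tested, of which 9 differed by more than 0 (51.7% of all genes) and 4 lay above both Nol3+/+ arrays (19.7%). By limma 0 passed the adjusted threshold and 2 reached an unadjusted p under 0.05 with higher values (3.73%). The median depended on single arrays. It was 0.19 without Nol3-/- MPN replicate 1, 0.51 with replicate 2 of that group left out in its place, and 0.26 or 0.44 when Nol3+/+ replicate 1 or 2 was dropped. Irgm2, a regulator of the family, read 6.11 and 6.29 in Nol3+/+ against 7.90 and 7.33 in Nol3-/- MPN, and thus differed by 1.42 (SE 0.27, limma adjusted p = 0.775). Gbp3 read 7.13 and 7.04 against 7.68 and 7.67, with 0.59 and 0.21 (limma adjusted p = 0.841). The difference between these lists and the antiviral members was not tested.

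**Figure D4:**
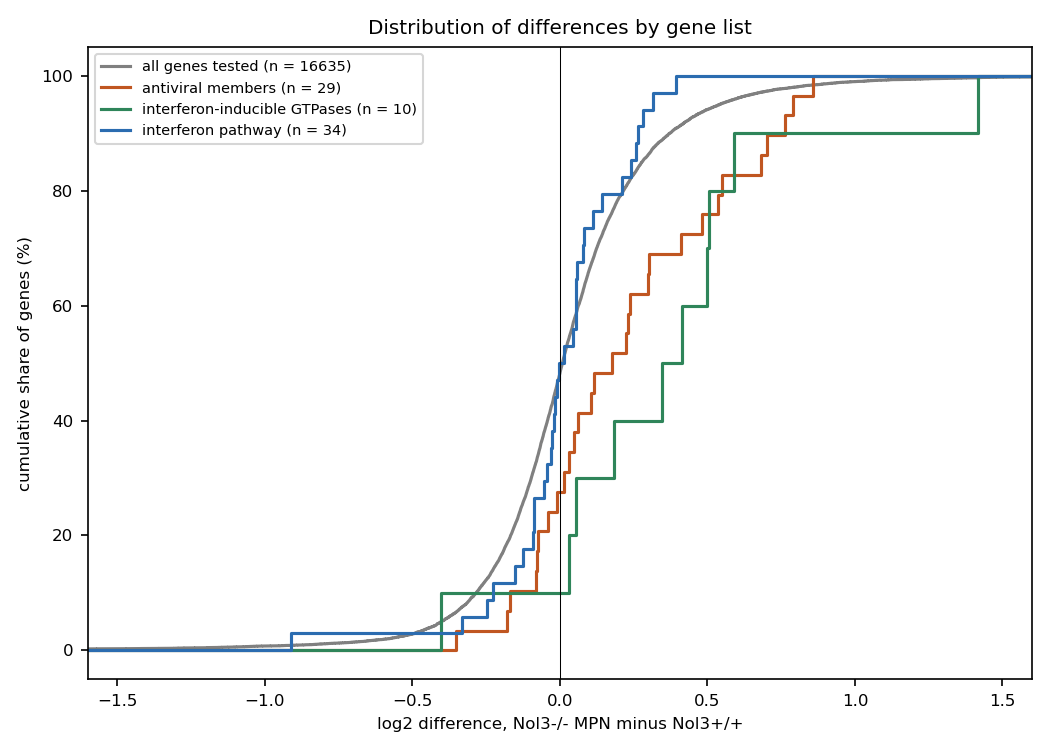
Cumulative share of genes in percent against the log2 difference, Nol3-/- MPN minus Nol3+/+, for all 16635 genes tested, the 29 antiviral members, 10 interferon-inducible GTPases and 34 interferon pathway genes. The curves of the members and the GTPases cross the halfway level at 0.17 and 0.38, to the right of the curves for all genes and for the pathway, which cross it at 0.01.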

How the data were processed

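The deposited table holds 41345 rows of values that the authors had normalized, for 4 arrays. The submitters' processing notes name Transcriptome Analysis Console and Affymetrix Expression Console. Versions, normalization and background correction are not given in the sources used for this text. The deposited values (2.84 to 13.5) were taken as log2 signals, so each fold rests on base 2, and fold ratios were computed here from the deposited log2 values.

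Rows with 1 symbol (23521) stood for 22180 genes. Genes with a mean under the 25th percentile, 4.835, were left out as dim (5545). Differences between the groups come from limma 3.58.1, run in R 4.3.3 (lmFit, eBayes with a variance trend; 2 residual and 3.19 prior degrees of freedom), with Benjamini-Hochberg adjustment over 16635 genes, and the fit was tested on simulated data. With 2 arrays against 2 an exact two-sided permutation test cannot go below 0.333, so none is given. The number of arrays limits the precision.

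The members and lists were chosen with earlier results of these data known. Array values were printed for each member with a row; SEs and p-values for members at an unadjusted p under 0.05, those separated by at least 0.5, and the largest difference of each role. The arrays share replicate numbers across groups, with no stated pairing. The 0.5 limit for members set apart by 1 array was chosen after the values were seen. Values in brackets after a gene are log2 differences.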

Additional observations from a re-analysis of the deposited data

How the results depend on the processing

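The count of members past the adjusted threshold was 0 in each alternative run that kept all 4 arrays. These runs had the replicate block, array weights, no variance trend or no sex-linked genes. Others had no filter or a filter at the 40th percentile, quantile normalization, median centring or the mean over rows. With the block, and without sex-linked genes, 0 of all genes passed, so no member could be counted there. The pathway and GTPase lists also had 0 in each of these runs. The members' median lay between 0.07 (quantile normalization) and 0.21 (stricter filter), and with 1 array left out between 0.11 and 0.18. It was 0.17 with the replicate block, array weights, no variance trend or no sex-linked genes. These settings left each member's difference as it was, so they put neither the median nor a sign to the test. The count of members above both Nol3+/+ arrays was 10, against 18.0% to 20.5% of all genes. It was 12 with no filter (18.8% of all genes) and 9 with the stricter one (20.4%). With 1 array left out, which makes separation easier, it lay between 13 and 18, against 31.9% to 37.7% of all genes. Same-numbered arrays did not deviate together (r = 0.05 over all genes tested, -0.36 over the 29 members); the block took 0 of all genes against 4, and 1 member at an unadjusted p under 0.05 against 2. Of the 29 members, 16 kept their sign throughout. Signs turned for Ifi35 (-0.0020 after quantile normalization, -0.16 as a mean over rows), Ifit1 (-0.011) and Ifitm3 (-0.022 after quantile normalization). With 1 array left out the ranges were -0.082 to 0.14 for Bst2, -0.079 to 0.11 for Ifi35, -0.0073 to 0.83 for Ifih1, -0.027 to 0.24 for Ifit1, -0.34 to 0.0036 for Ifit3, -0.10 to 0.20 for Ifitm3, -0.37 to 0.011 for Lgals3bp, -0.043 to 0.16 for Oas2, -0.23 to 0.071 for Oas3, -0.39 to 0.31 for Rsad2, -0.13 to 1.49 for Rtp4, -0.12 to 0.10 for Samd9l and -0.28 to 0.12 for Tap1. The cause was not tested. Signals near background and 2 arrays a group limit what can be seen.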

Other observations

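Rows of the table that the annotation gives to several genes at once were used for no member, and 3 of them name a member. The row of Dtx3l and Parp9 together read 6.02 and 6.13 in Nol3+/+ against 5.81 and 6.37 in Nol3-/- MPN, with overlap and a log2 difference of 0.02, whereas the row of Parp9 alone differed by 0.70. The row of Oas1a and Oas1g read 5.64 and 4.95 against 5.07 and 5.46, a difference of -0.03. The row of Ifi27l2a and Ifi27l2b read 4.77 and 4.81 against 4.69 and 4.71, below the limit for dim genes in all 4 arrays, with a difference of -0.09.

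Some members that lie close together in the genome had unlike differences and others similar ones. On chromosome 5 Oasl2 and Oasl1 differed by 0.79 and -0.08, on chromosome 16 Parp9 and Parp14 by 0.70 and 0.11, on chromosome 7 Ifitm2, Ifitm1 and Ifitm3 by 0.76, 0.48 and 0.05, and on chromosome 12 Cmpk2 and Rsad2 by 0.22 and -0.04. On chromosome 5 Oas2 and Oas3 differed by 0.06 and -0.08, and on chromosome 19 Ifit1 and Ifit3 by 0.11 and -0.17, with Ifit2 not tested. No test was made of these differences between neighbours.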
